A study of Mus musculus with 19 samples.

Results

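Reads of the miRNA gene Mir122 were followed through 19 small RNA libraries of mouse sperm. A read was counted when it matched the Mir122 hairpin in sense orientation, with 1 mismatch allowed. Mir122 is 1 of the 2159 annotated miRNA hairpins with a read in these libraries, and it held 4906347 reads in traditional RNA-seq and 11945 reads in PANDORA-seq. It was chosen by its measured level in these same libraries, so its level is given as a description, without a test. The tests below concern the make-up of its reads and the ratios in which it serves as part of a denominator.

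The sperm came from the cauda epididymis of wild-type C57BL/6J males that were 8 weeks old when dosing began and that received corn oil (control) or dicyclohexyl phthalate (DCHP), a plasticizer, by oral gavage for 4 weeks. Sperm were treated with a lysis buffer against somatic cells before RNA was isolated. Each kind of sample was read by traditional RNA-seq (5 control and 5 DCHP libraries) and by PANDORA-seq (4 control and 5 DCHP libraries), in which the RNA is first treated with the demethylase AlkB and with T4 polynucleotide kinase, so that modified and differently ended RNAs can enter a library. The study describes its PANDORA-seq libraries as replicates from separate mice, while the labels number the libraries without saying what a number stands for. The labels also list DCHP as the treatment of every library, so exposure was read from the library titles. The libraries held 21588335 to 56506344 reads of 15 to 45 nt.

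MicroRNAs are cut from a hairpin precursor by Drosha and Dicer, and usually 1 arm of the hairpin is kept in Argonaute as the guide that pairs with messenger RNAs. miR-122, the product of the 5p arm of this hairpin, is the most abundant miRNA of hepatocytes, where it acts on genes of cholesterol and lipid metabolism, and it is a standard marker of that cell type. Sperm and germ cells are known for other miRNAs, such as those of the miR-34 and miR-449 families, and the epididymal epithelium for the miR-200 family. The annotated hairpin (ENSMUSG00000065402.1) is a miRNA gene of 66 nt on the forward strand of chromosome 18, at 65248861 to 65248926 in GRCm38.

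In traditional RNA-seq, Mir122 ranged from a minor to the leading miRNA of a library. Its share of all hairpin reads in the 5 control libraries was 21.2%, 41.4%, 2.45%, 1.77% and 4.09% for replicates 1 to 5. In the 5 DCHP libraries it was 1.53%, 19.3%, 11.8%, 3.80% and 1.25%. Control 2 and control 1 stood highest, followed by DCHP 2 and DCHP 3, and the 2 groups overlapped. The exact 95% binomial intervals were narrow beside this spread (for example 41.35% to 41.41% in control 2 and 1.24% to 1.26% in DCHP 5). They cover counting error only, since the reads carry no molecular identifiers.

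The group mean was 14.2% ± 17.2 (SD, n = 5) in traditional control and 7.53% ± 7.84 (SD, n = 5) in traditional DCHP libraries, a ratio of 0.531. That ratio rested on 1 library. Without control 2 it was 1.02, and the medians of the groups, 4.09% and 3.80%, gave 0.929. Per read of the library the ratio of the means was 0.268, it was 1.17 without control 2, and the medians gave 1.36, so the direction turned with the measure and the library.

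In PANDORA-seq the same hairpin was a small part of the hairpin reads. The 4 control libraries gave 0.123%, 1.21%, 0.107% and 0.0709%, from 439, 3422, 611 and 538 Mir122 reads. The 5 DCHP libraries gave 0.0314%, 1.04%, 0.144%, 0.246% and 0.290%, from 177, 3694, 699, 863 and 1502 reads. Replicate 2 stood far above the rest in each group, and the groups overlapped. The lowest share, in DCHP 1, had an exact 95% interval of 0.0269% to 0.0364%, below that of every other library. The means were 0.377% ± 0.553 (SD, n = 4) in control and 0.351% ± 0.400 (SD, n = 5) in DCHP libraries, a ratio of 0.932. Without control 2 the ratio was 3.50, and without DCHP 2 it was 0.472. Ordered by median, the groups ran from traditional control (4.09%) and traditional DCHP (3.80%) to PANDORA-seq DCHP (0.246%) and PANDORA-seq control (0.115%). Neighbours of the same method overlapped in this order, whereas every traditional library (lowest 1.25%) lay above every PANDORA-seq library (highest 1.21%). The gap was within counting error, since the exact 95% intervals of these 2 libraries were 1.24% to 1.26% and 1.17% to 1.25%. With exact matches only, the libraries of the methods overlapped, and the ratio of the means went from 37.6 to 20.25 in control and from 21.45 to 10.29 in DCHP libraries. These ratios also depended on the libraries numbered 2. In control the ratio was 141 without the PANDORA-seq one and 19.6 without the traditional one, and in DCHP it was 42.3 and 13.1.

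**Figure D1:**
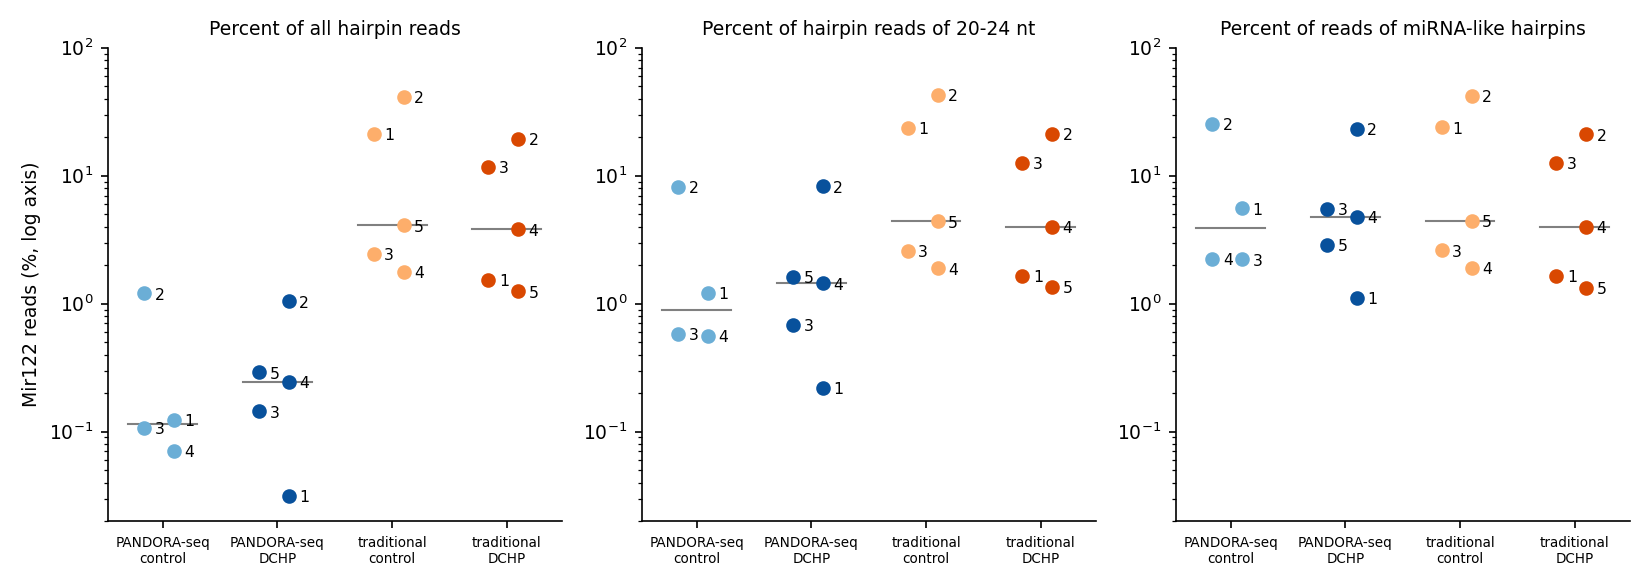
Share of Mir122 in each library on a log axis, as percent of all hairpin reads (left), of hairpin reads of 20 to 24 nt (middle) and of reads of miRNA-like hairpins (right). Points are libraries with their replicate numbers and grey lines are group medians. The methods are apart on the left (medians 0.115% and 0.246% against 4.09% and 3.80%) and overlap on the right, where replicate 2 is the highest library of all 4 groups.

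The distance between the methods depended on what counts as a miRNA read. Of the 4242939 hairpin reads in PANDORA-seq, 620727 were 20 to 24 nt long, the size of a mature miRNA, against 26656236 of 29664303 in traditional libraries. In PANDORA-seq the hairpin Mir6240 alone held 55.1% of the hairpin reads of that size. Among reads of that size Mir122 reached 0.219% to 8.25% in PANDORA-seq and 1.35% to 42.9% in traditional libraries, and the methods overlapped. A narrower total was formed from the 453 hairpins of which at least 50% of all reads were 20 to 24 nt long (miRNA-like hairpins, a choice made after the read lengths were seen). These hairpins held 28062863 of the 29664303 hairpin reads in traditional libraries, but 188202 of 4242939 in PANDORA-seq. Most hairpin reads of PANDORA-seq thus lay on other hairpins, Mir6240 among them. Reads of all libraries were pooled for this choice and are mostly traditional, so comparisons of the methods on this base are descriptions. Among their reads, Mir122 held 5.55%, 25.4%, 2.22% and 2.23% in PANDORA-seq control libraries 1 to 4, and 1.11%, 23.2%, 5.49%, 4.74% and 2.87% in PANDORA-seq DCHP libraries 1 to 5. The traditional control libraries gave 23.9%, 42.2%, 2.61%, 1.91% and 4.47%, and the traditional DCHP libraries gave 1.64%, 21.02%, 12.6%, 3.98% and 1.34%. On this base the ranges of the methods overlapped, from 1.11% to 25.4% in PANDORA-seq and from 1.34% to 42.2% in traditional libraries, and replicate 2 was the highest of every group.

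Scaled to all reads of a library (RPM, reads per 1000000), Mir122 stood at 10716, 70134, 1918, 806 and 2277 RPM in traditional control libraries 1 to 5. The traditional DCHP libraries had 783, 10008, 7814, 3101 and 1317 RPM. In PANDORA-seq it stood at 17.3, 129.4, 14.1 and 9.52 RPM in control libraries and at 3.74, 110.7, 17.6, 30.1 and 34.1 RPM in DCHP libraries. The traditional mean was 403 times the PANDORA-seq mean in control and 117 times in DCHP libraries. In control it was 92.3 times without traditional control 2 and 1259 times without PANDORA-seq control 2, and in DCHP it was 215 times without PANDORA-seq DCHP 2. Over the miRNA-like hairpins compared, the median of the same ratio was 154 in control (116 hairpins) and 114 in DCHP libraries (123 hairpins). To be compared, a hairpin needed at least 100 reads in each traditional library of the exposure, but only some read in each PANDORA-seq library. Such a filter rests mostly on traditional reads, so the medians and the place of Mir122 among these hairpins are descriptions. In control libraries 12 of these hairpins had a larger ratio than Mir122, and in DCHP libraries 60 had. With medians of the libraries in place of means, the ratio of Mir122 was 145 in control, against 121.8 for the median hairpin, and 103 in DCHP, against 128.

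Libraries that carry the same exposure and number in both methods were similar in the Mir122 share of miRNA-like reads. Over the 9 such pairs, the log2 share of miRNA-like reads gave a Pearson r of 0.874 and a Spearman rho of 0.867, and r was 0.882 without the 2 pairs farthest from the median of the traditional values (control 1 and control 2). Without the pairs numbered 2, the highest of each exposure in PANDORA-seq, r was 0.786. For the RPM of Mir122, r was 0.761 and rho 0.700, and r was 0.459 without the 2 pairs farthest from that median. The points share their numbering and the 2 library methods, and the correlation is given as a description. In pair control 2 PANDORA-seq gave 25.4% and traditional RNA-seq 42.2%, and in pair DCHP 2 they gave 23.2% and 21.02%. Pair control 1 differed most, with 5.55% against 23.9%.

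The 5 most read hairpins of traditional RNA-seq put this spread to scale. Mir122 held the most reads of 20 to 24 nt over the 10 libraries (17.7% of the sum), ahead of Mir148a (16.3%), Mir10a (11.7%), Mir10b (9.56%) and Mir143 (4.94%). This place rested on control 2, the library with most of these reads. Without it Mir122 held 6.45% of the sum, at rank 4, and Mir148a led with 19.6%. The median over the 10 libraries was 4.20% for Mir122 and 19.2% for Mir148a. It was the first hairpin in 3 libraries (control 1, control 2 and DCHP 2) and at rank 16 in DCHP 5. Its share differed 31.7-fold between the lowest and the highest library, with a coefficient of variation of 119%. The other 4 differed 2.62-fold to 3.27-fold, with coefficients of 21.1% to 33.7%. By RPM, 2 less abundant hairpins varied more widely, since the 89.6-fold range of Mir122 was at rank 3 among the miRNA-like hairpins with at least 100 reads in each traditional library (median 5.21-fold), after Mir194-2 (132-fold) and Mir194-1 (130.4-fold). Reads that matched both Mir194 hairpins equally were divided between them, so their values are not independent. In PANDORA-seq the first 5 were Mir6240, Mir148a (4.63%), Mir10a (3.29%), Mir5099 (2.78%) and Mir10b (2.21%), and Mir122 came next with 1.83%. Its PANDORA-seq share differed 37.8-fold, from rank 30 in DCHP 1 to rank 2 in control 2 and DCHP 2.

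The reads of Mir122 had nearly the same form in every library. Almost all lay on the 5p arm and started at position 6 of the hairpin, and most ended at position 25, 26 or 27. The 3 most frequent of the 852 distinct sequences ran from position 6 to 27 (22 nt), from 6 to 25 (20 nt) and from 6 to 26 (21 nt) without a mismatch. They held on average 28.6%, 24.4% and 21.9% of the Mir122 reads in traditional control libraries, and 29.9%, 23.4% and 25.4% in PANDORA-seq control libraries. No Mir122 read was shared with another hairpin.

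The start varied little between libraries. Reads that began at position 6 made up 99.83% ± 0.0225 (SD, n = 5) of the 5p reads in traditional control and 99.82% ± 0.0419 (SD, n = 5) in traditional DCHP libraries. In PANDORA-seq they made up 99.83% ± 0.126 (SD, n = 4) in control and 99.80% ± 0.174 (SD, n = 5) in DCHP libraries. All 4 comparisons overlapped, with adjusted p from 0.996 to 1 (two-sided exact permutation tests, Benjamini-Hochberg over 16 tests of make-up). Since the seed that pairs with targets is counted from the first base of a miRNA, nearly all reads shared 1 seed position.

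The mean length of 5p reads was 20.97 ± 0.0305 nt (SD, n = 5) in traditional control and 20.99 ± 0.0325 nt (SD, n = 5) in traditional DCHP libraries. PANDORA-seq gave 20.95 ± 0.0386 nt (SD, n = 4) in control and 20.99 ± 0.0643 nt (SD, n = 5) in DCHP libraries. None of the 4 contrasts passed the threshold (adjusted p from 0.995 to 1, exact permutation tests), and the differences of means ran from -0.0188 to 0.0354 nt. Reads of 15 to 19 nt made up 4.72% to 6.08% of the Mir122 reads in the 4 group means, so few Mir122 reads lay below the mature size in either method.

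**Figure D2:**
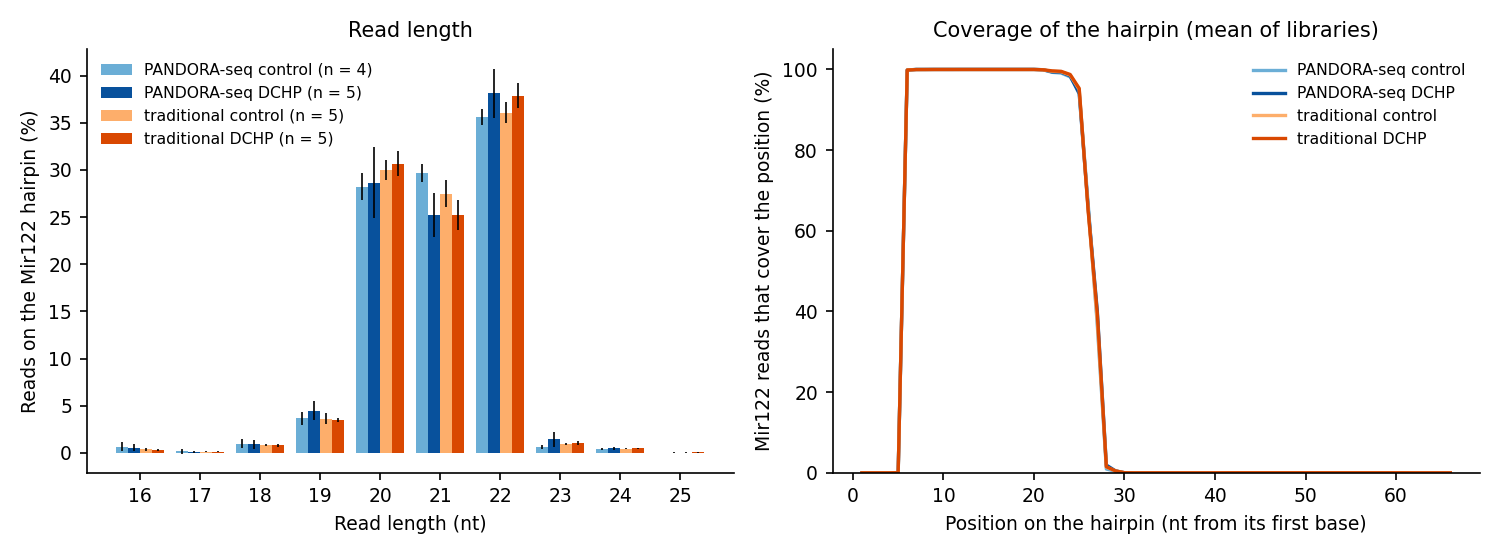
Left, percent of Mir122 reads at each length from 16 to 25 nt, as the mean of the libraries of a group with error bars of 1 SD. Right, percent of Mir122 reads that cover each of the 66 positions of the hairpin, as group means. Lengths of 20, 21 and 22 nt lead in all 4 groups, and the 4 coverage lines run together from position 6 to position 27.

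Within these 3 lengths the shares varied more. Reads of 22 nt led in each group mean, with 36.1% in traditional control, 37.9% in traditional DCHP, 35.6% in PANDORA-seq control and 38.1% in PANDORA-seq DCHP libraries. Reads of 21 nt made up 29.8%, 27.6%, 26.8%, 27.3% and 25.98% in traditional control libraries 1 to 5, and 26.8%, 23.8%, 23.4%, 25.4% and 26.5% in traditional DCHP libraries 1 to 5. In PANDORA-seq they made up 29.4%, 28.8%, 29.5% and 31.0% in control libraries, and 25.99%, 22.7%, 24.03%, 24.6% and 28.8% in DCHP libraries. The group means were 27.5% and 25.2% in traditional, and 29.7% and 25.2% in PANDORA-seq, lower with DCHP in each method. The traditional groups overlapped, while in PANDORA-seq the highest DCHP library (28.76%) lay just under the lowest control library (28.78%). These 2 shares rest on 1502 reads (DCHP 5) and 3422 reads (control 2). By reads that end at position 26 the PANDORA-seq groups overlapped, with 28.83% in DCHP 5 and 28.78% in control 2. The length of 21 nt was picked with its values in view, so no test was made of it. Over the 9 same-numbered pairs the 21 nt share of the methods gave r = 0.809 and rho = 0.767, again as a description. The 22 nt share gave r = 0.486 and rho = 0.367, and r = -0.28 without the 2 pairs farthest from the median of the traditional values.

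**Figure D3:**
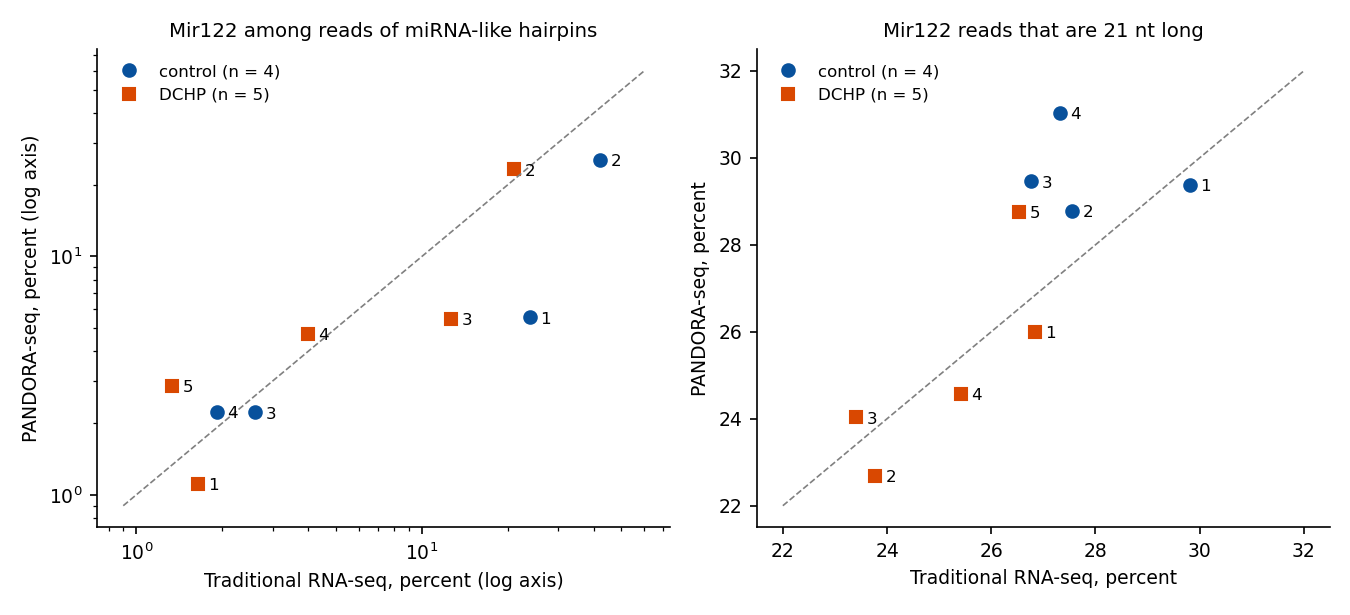
Each point is a pair of libraries with the same exposure and number, read by traditional RNA-seq (horizontal) and PANDORA-seq (vertical), with control as circles and DCHP as squares. The left panel (log axes) gives the Mir122 share of reads of miRNA-like hairpins and the right panel the percent of Mir122 reads of 21 nt, and dashed lines mark equality. Pairs lie along the line in both panels (r = 0.874 and 0.809), with control 1 lowest beneath it on the left.

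Few reads came from the 3p arm, the passenger strand of this hairpin. Traditional libraries held 46, 257, 3, 2 and 17 such reads in control 1 to 5 and 14, 32, 56, 5 and 3 in DCHP 1 to 5, 435 in all or 0.00887% of the Mir122 reads. The most frequent places were positions 42 to 61 (148 reads) and 41 to 61 (142 reads). The share was 0.0122% ± 0.0110 (SD, n = 5) in control and 0.0173% ± 0.0147 (SD, n = 5) in DCHP libraries, and these overlapped (adjusted p = 0.996, exact permutation test). No PANDORA-seq library had a 3p read. The 0 of 11945 reads allow a share of up to 0.0251%, and at the traditional share 1.06 reads would have been expected, so a 3p arm at the traditional level was not detectable at this depth. The comparison of the methods gave an adjusted p of 0.127 at each exposure (exact permutation tests).

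Mismatches at the last base, a place where tails of untemplated bases appear, stood in 2.70% ± 0.285 (SD, n = 5) of the 5p reads of traditional control and 2.63% ± 0.275 (SD, n = 5) of traditional DCHP libraries. PANDORA-seq gave 2.13% ± 0.647 (SD, n = 4) and 2.27% ± 0.613 (SD, n = 5). The 4 contrasts overlapped and did not pass the threshold (adjusted p from 0.720 to 0.996, exact permutation tests). In PANDORA-seq control 3, control 4 and DCHP 1 these shares rest on 9, 9 and 3 reads. Reads with a mismatch anywhere made up 20.6% and 20.7% in the traditional groups and 16.3% and 17.5% in the PANDORA-seq groups, where the libraries ranged from 11.6% to 20.6%.

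The hairpins whose level followed that of Mir122 most closely were sought by Pearson's r of log2(RPM + 1). Over the 10 traditional libraries, among 191 hairpins with at least 100 reads in each, the 5 highest were Mir192 (r = 0.9503), Mir194-2 (0.944), Mir194-1 (0.939), Mir126a (0.929) and Mir1843a (0.917), while the median hairpin had r = -0.10. Mir194-2 and Mir194-1 hold reads divided between them, so their values are not independent. miR-192 and miR-194 are abundant in liver, kidney and gut, and miR-126 is a miRNA of endothelial cells. All 5 were highest in traditional control 2, at 26.3, 30.1, 32.6, 26.6 and 7.91 times their medians, against 26.1 times for Mir122. Over the 9 PANDORA-seq libraries, none of the 80 hairpins with at least 100 reads in each followed it comparably. Few miRNA-like hairpins could be compared, since only 10 of them, Mir122 included, had 100 reads in each library. The highest value was r = 0.32 for Gm23935, Gm24245 and Gm24270, which have identical values because reads that match several hairpins equally were divided among them, followed by Mir1957a (0.28) and Gm26117 (0.24). Mir192 had too few PANDORA-seq reads to enter (11 to 244). Its PANDORA-seq level was highest in control 2 (9.23 RPM) and lowest in DCHP 1 (0.232 RPM), as was that of Mir122. In DCHP 2, however, it stood at 1.74 RPM, below 2.78 RPM in DCHP 4.

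The ratio of Mir122 to Mir192 lay in a narrow range in most libraries. In traditional control libraries 1 to 5 there were 11.7, 12.9, 19.9, 13.3 and 12.7 Mir122 reads per Mir192 read. In traditional DCHP libraries 1 to 5 there were 10.7, 42.9, 14.5, 10.8 and 9.37. DCHP 2 stood apart, with Mir122 at 10008 RPM beside 233 RPM of Mir192, while control 1 had 10716 RPM beside 919 RPM. In PANDORA-seq the DCHP 2 library again stood apart with 63.7, and the other 8 libraries lay between 10.9 and 25.6. The remaining liver miRNA with reads, Mir193a, stayed at or below 3.47 RPM. Of the 5 listed liver miRNAs other than Mir122, 4 had reads, and their sum was 6527 RPM in traditional control 2, 1082 RPM in control 1, 69.6 to 214 RPM in the other 3 control libraries and 84.2 to 629 RPM in the DCHP libraries.

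Fragments of liver messenger RNAs were looked for as well, by exact match of reads of at least 20 nt. All 14 listed genes had reads, among them Alb (albumin), Apoa1 (an apolipoprotein of HDL), Ttr (transthyretin), Serpina1a (an antitrypsin) and Cps1 (an enzyme of the urea cycle). Their sum was 1125 RPM in traditional DCHP 2 and 24.2 to 137 RPM in the other 9 traditional libraries, with 133 RPM in control 2. In PANDORA-seq it was 107 RPM in DCHP 2 and 18.3 to 29.9 RPM in the other 8. In those 8 libraries, 3 of the 14 genes, Trf (transferrin), Cyp2e1 (a cytochrome P450) and Hp (haptoglobin), made up 71.0% to 95.4% of the sum, against 36.0% in DCHP 2. Cyp2e1 and Hp were highest in PANDORA-seq DCHP 1, at 8.75 and 2.35 RPM. These 3 were singled out after their values were seen, and the other 11 genes summed to 68.5 RPM in DCHP 2 and to 0.956 to 8.62 RPM in the other 8. Alb stood at 409 RPM in traditional DCHP 2 and at 43.9 RPM in PANDORA-seq DCHP 2, whereas PANDORA-seq control 2, with the highest Mir122 level of its method, had 0.265 RPM. The libraries numbered DCHP 2 were thus high in liver mRNA fragments and Mir122 by both methods, and those numbered control 2 were high in Mir122 and Mir192. Their liver mRNA sums differed in place, with the lowest of the 9 libraries in PANDORA-seq control 2 (18.3 RPM) and the third highest of 10 in traditional control 2. The part of liver RNA in the level of Mir122 was not tested, and in such bulk libraries fewer cells of a type and less RNA per cell cannot be told apart.

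**Figure D4:**
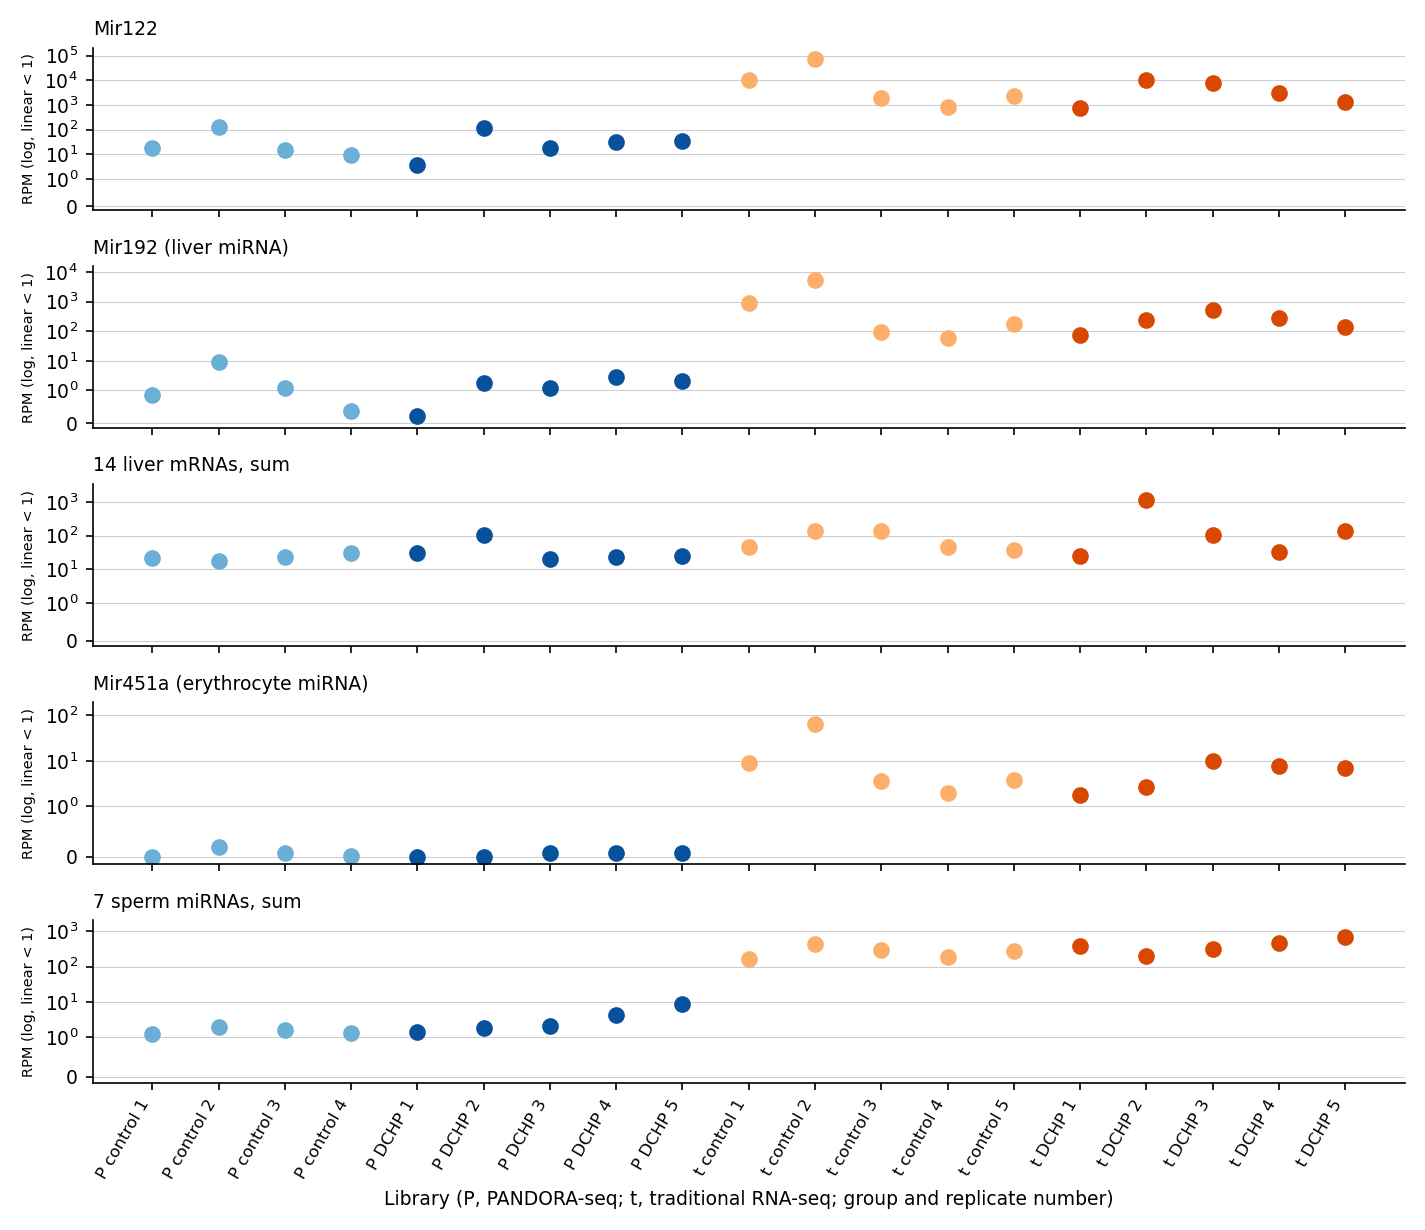
Level in each library in RPM (log axis, linear below 1), of Mir122, Mir192, the sum of 14 liver mRNAs, Mir451a and the sum of 7 sperm miRNAs, with a colour for each group. Traditional control 2 leads in Mir122 (70134 RPM), Mir192 and Mir451a (65.9 RPM), whereas traditional DCHP 2 leads in liver mRNAs (1125 RPM). The sperm miRNAs vary least of these within the traditional libraries (164 to 692 RPM).

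Most blood cell miRNAs were highest in traditional control 2 too. Mir451a, an erythrocyte miRNA, stood at 65.9 RPM there and at 1.79 to 9.85 RPM in the other 9 traditional libraries, and Mir142, a leukocyte miRNA, at 73.5 RPM against 1.90 to 12.2 RPM. The sum of the 3 erythrocyte miRNAs with reads was 136 RPM in control 2 and 19.8 to 50.9 RPM elsewhere, and that of the 4 leukocyte miRNAs was 88.4 RPM against 4.66 to 20.6 RPM. All miRNA-like hairpins other than Mir122 together were also highest in DCHP 5 (97192 RPM) and control 2 (96046 RPM). The other traditional libraries had 34193 to 74884 RPM of them. Mir142 made up most of the leukocyte sum in control 2, whereas Mir223, a miRNA of myeloid cells, stood at 4.03 RPM there and was highest in DCHP 5 with 5.29 RPM. Mir486 of the erythrocyte list hardly set control 2 apart, with 46.2 RPM there beside 43.8 RPM in control 3 and 43.1 RPM in DCHP 5. The 2 haemoglobin mRNAs did not share this order, with 2.17 RPM in control 2, the lowest traditional sum, and a highest of 10.9 RPM in control 3, and they summed to 72.7 to 145 RPM in PANDORA-seq. In PANDORA-seq, where these miRNAs had few reads, their sums did not share the order of Mir122. There the erythrocyte sum was 1.096 RPM in control 2, 0.899 RPM in DCHP 2 and highest in DCHP 5 with 1.27 RPM, and the leukocyte sum was 0.170, 0.210 and 0.295 RPM in the same libraries. Mir486 made up 0.832 RPM of the erythrocyte sum in control 2. Mir451a, Mir144 and Mir142 were each highest in PANDORA-seq control 2, at 0.189, 0.0756 and 0.0945 RPM from 5, 2 and 2.5 reads. Mir486, Mir223, Mir150 and Mir155 were highest in other PANDORA-seq libraries. The part of blood RNA in the level of Mir122 was not tested.

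Each list for the labelled tissue had reads in all libraries, though not every member did. The 7 germ cell and sperm miRNAs summed to 164 to 434 RPM in traditional control and 205 to 692 RPM in traditional DCHP libraries, and to 1.26 to 8.68 RPM in PANDORA-seq. This list holds Mir191 and Mir425, which many tissues also express, and Mir191 made up 302 of the 434 RPM in traditional control 2. The 5 Mir34 and Mir449 genes of the list summed to 125 RPM in that library, and to 87.1 to 462 RPM over the traditional libraries. Mir34c and Mir34b made up nearly all of this sum. Mir449a, Mir449b and Mir449c each stayed at or below 2.72 RPM, and Mir449b had no read in PANDORA-seq. The 6 sperm mRNAs (Prm1, Prm2, Tnp1, Tnp2, Odf1 and Smcp, genes of chromatin packing and the tail) summed to 159 to 327 RPM in traditional and 160 to 261 RPM in PANDORA-seq libraries. The 6 miRNAs of the epididymal epithelium summed to 557 to 4449 RPM in traditional and 2.75 to 43.1 RPM in PANDORA-seq libraries, with DCHP 5 highest by both methods. All miRNA-like hairpins other than Mir122 together were highest in DCHP 5 by both methods too. In PANDORA-seq they stood at 1154 RPM there, against 294 to 623 RPM in the other libraries. Of the epididymal mRNAs nearly all reads were of Crisp1, at 44.9 to 176 RPM in traditional and 394 to 832 RPM in PANDORA-seq libraries. In traditional libraries Defb20 had no read, and Lcn5 had reads only in control 4 (0.0588 RPM). The 6 muscle miRNAs (55.9 to 385 RPM in traditional libraries) and the 6 brain miRNAs (12.6 to 31.9 RPM) were not highest in control 2, and the brain-defining Mir124a genes were each at or below 0.676 RPM.

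The study divides small RNA counts by total miRNA, so Mir122 enters every normalized value through that total. Leaving Mir122 out of the total would multiply each miRNA-normalized value by 1.71 in traditional control 2, 1.27 in control 1, 1.24 in DCHP 2 and 1.13 in DCHP 3. The factor was 1.01 to 1.04 in the other 6 traditional libraries and at most 1.012 in PANDORA-seq. Most hairpin reads of PANDORA-seq lay outside the miRNA-like hairpins. With the narrower total of miRNA-like hairpins the factor reached 1.34 in PANDORA-seq control 2 and 1.30 in PANDORA-seq DCHP 2. For a DCHP against control comparison in traditional libraries, the average effect was a shift by -0.13 on the log2 scale, or 0.914-fold. That shift rested on control 2, without which it was 0.00082 (log2). In PANDORA-seq it was a shift by -0.00038. With the total of miRNA-like hairpins the PANDORA-seq shift was -0.024, from -0.090 without DCHP 2 to 0.069 without control 2. The totals here are reads matched to GENCODE hairpins and may differ from the miRNA total of the study, which used SPORTS1.1.

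The total itself varied less without Mir122 in the traditional control group. Hairpin reads made up 7.99% ± 5.16 (SD, n = 5) of all reads in traditional control libraries, with a coefficient of variation of 64.7%. Without Mir122 they made up 6.27% ± 2.48 with a coefficient of 39.6%. In traditional DCHP libraries the coefficient went from 31.9% to 37.3%. The share of other abundant hairpins followed. Mir148a held 8.98% of the 20 to 24 nt hairpin reads of control 2, its lowest of 10 libraries. Once Mir122 was left out it held 15.7% there, still its lowest, and its coefficient over the libraries went from 21.1% to 12.4%. Mir10a went from 30.1% to 21.3% and Mir10b from 29.4% to 20.8%. Mir21a, the next hairpin in this order and widespread in tissues, went the other way, from 29.5% to 52.5%. It held 5.85% of the reads in control 2, its highest, and 10.3% without Mir122 in the total.

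rRNA fragments per miRNA read show the effect on another class. In traditional control libraries 1 to 5 there were 1.25, 0.343, 0.909, 1.27 and 1.03 rRNA reads per miRNA read, and 1.59, 0.585, 0.931, 1.29 and 1.08 without Mir122. In traditional DCHP libraries 1 to 5 there were 1.14, 1.09, 0.973, 0.698 and 0.510, and 1.15, 1.35, 1.103, 0.726 and 0.516 without it. Control 2 was the lowest of the 10 libraries with Mir122 in the total, and DCHP 5 was the lowest without it. The group means were 0.961 ± 0.377 and 0.882 ± 0.269 (SD, n = 5 each), a DCHP to control ratio of 0.917 that became 0.886, and neither passed the threshold (adjusted p = 0.825 and 0.689, exact permutation tests over 8 comparisons).

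**Figure D5:**
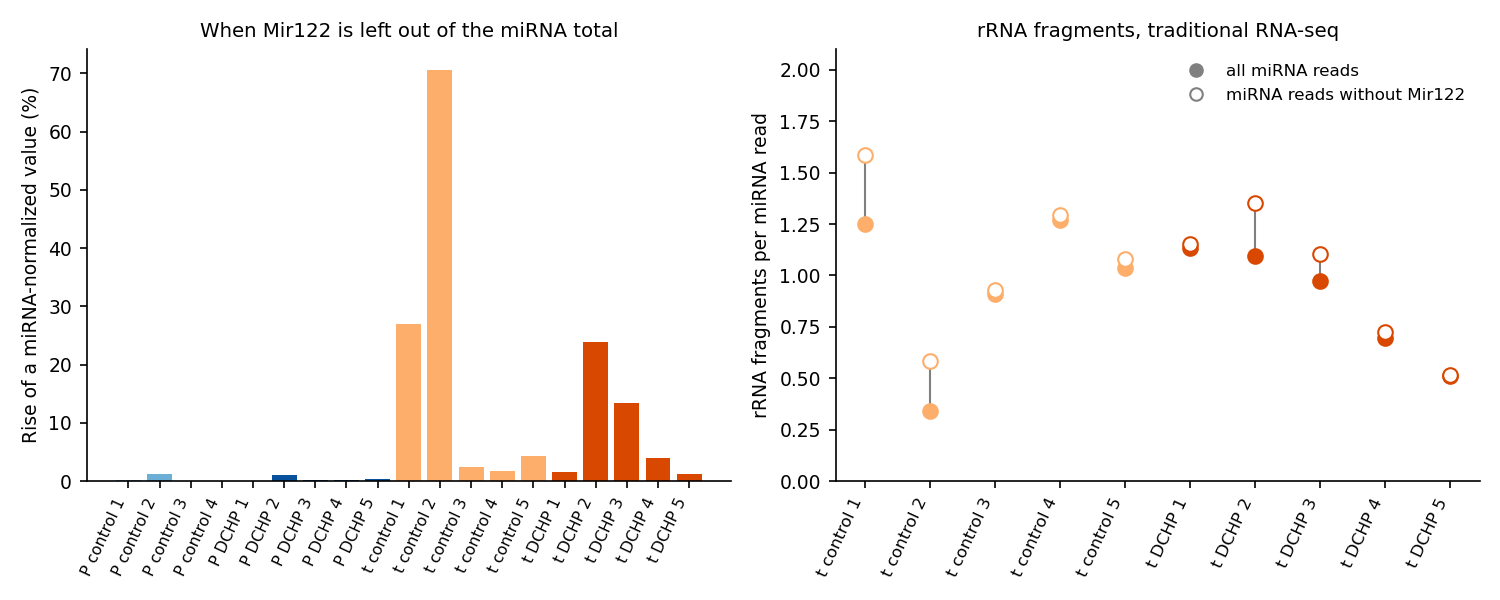
Left, rise in percent of any value divided by total miRNA reads when Mir122 is left out of that total, for each of the 19 libraries (P, PANDORA-seq and t, traditional RNA-seq). Right, rRNA fragments per miRNA read in the 10 traditional libraries with all miRNA reads (filled) and without Mir122 (open). Traditional control 2 moves most as a ratio, from 0.343 to 0.585, while control 1 moves furthest on the linear axis, from 1.25 to 1.59, and the libraries of low Mir122 share hardly move.

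The PANDORA-seq libraries held more rRNA, with 25.4 ± 6.004 rRNA reads to each miRNA read in control (SD, n = 4) and 26.1 ± 2.74 in DCHP libraries (SD, n = 5). The PANDORA-seq mean was thus 26.4 times the traditional mean in control and 29.6 times in DCHP libraries (adjusted p = 0.0212 each, exact permutation tests). Without Mir122 the ratios were 23.3 and 26.98 with the same adjusted p. The size of the ratio depended on the denominator. Per read of the library it was 5.19 in control and 5.28 in DCHP (adjusted p = 0.0318 each), per hairpin read of 20 to 24 nt it was 180.8 and 173 (adjusted p = 0.0159 each, exact permutation tests). Per miRNA-like read it was 691 and 709, as a description. Without any single traditional control library the comparison in control could not pass, since 4 against 4 libraries give no p under 0.0286 (adjusted p = 0.0762, exact permutation test), and the ratio stayed between 4.51 and 4.84 on the log2 scale over all libraries left out. Within PANDORA-seq the DCHP to control ratio was 1.03 either way (adjusted p = 0.841 and 0.849, exact permutation tests). With same-numbered libraries paired, as their hairpin levels allow, the smallest p that 4 or 5 pairs can give is 0.125 or 0.0625, so no method comparison could pass (adjusted p = 0.25 in the exact sign-flip test).

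For mitochondrial tRNA fragments the ratio of the methods turned with the denominator. Per miRNA read, the PANDORA-seq mean was 5.33 times the traditional mean in DCHP libraries (0.347 ± 0.167 against 0.0650 ± 0.0165, SD, n = 5 each, adjusted p = 0.0212, exact permutation test), and 4.92 times without Mir122 (adjusted p = 0.0212, exact permutation test). Per hairpin read of 20 to 24 nt the ratio in DCHP libraries was 30.05 (adjusted p = 0.0159), but per read of the library it was 0.942 (adjusted p = 0.825, exact permutation tests). Per miRNA-like read it was 137, as a description. The call per miRNA read was lost when any single traditional DCHP library was left out (adjusted p = 0.0635, exact permutation test), and the paired adjusted p was 0.25 in the exact sign-flip test. In control libraries the ratio was 1.78 with and 1.61 without Mir122 (adjusted p = 0.292 and 0.343, exact permutation tests). Per hairpin read of 20 to 24 nt the control ratio was 12.6, which passed (adjusted p = 0.0159, exact permutation test). Per read of the library it was 0.349, lower in PANDORA-seq (adjusted p = 0.0423, exact permutation test). The DCHP to control ratio in PANDORA-seq was 3.69 with and 3.68 without Mir122, and neither passed after adjustment (exact permutation p = 0.0397, adjusted p = 0.0794 in both). In traditional libraries it was 1.23 and 1.20 (adjusted p = 0.624 in both, exact permutation tests). No call in these 8 comparisons changed when Mir122 was left out. There was little room for a change in the calls that passed, at ratios of 5.33 or more. Leaving Mir122 out multiplies a value by at most 1.012 in PANDORA-seq and 1.71 in traditional libraries.

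Single hairpins were then tested between DCHP and control within each method, with total miRNA reads as library size. With the quasi-likelihood test of edgeR, 0 of 690 hairpins were called in traditional RNA-seq and 0 of 291 in PANDORA-seq at an adjusted p below 0.1 and a change above 2-fold, a background of 0% in each. At an unadjusted p below 0.05 there were 32 and 11. Leaving Mir122 out of the library size left both counts at 0 of 690 and 0 of 291 (0% each), with 34 and 11 hairpins at an unadjusted p below 0.05. DESeq2 called 0 in each as well, with 43 and 9 at an unadjusted p below 0.05. Leaving Mir122 out of the library size shifts all hairpins of a library together, and the median log2 change in traditional RNA-seq went from 0.30 to 0.20.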

How the data were processed

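Mir122 and all gene lists were chosen with earlier results of these data known. The authors deposited, for each of 19 libraries, counts of reads per distinct sequence of 15 to 45 nt, without normalization. Per the methods they ran SPORTS1.1 with 1 mismatch allowed, and the processing notes name mm10, while adapter and quality settings were not given in the sources used here. Sequences were matched with bwa 0.7.19 (at most 1 mismatch, sense strand) to 2198 GENCODE hairpins of GRCm38, 4 others that overlap a tRNA being left out. A read with several best hairpins was divided equally among them. Reads without a hairpin match were then matched to 356 rRNA transcripts (5S, 5.8S, 18S and mitochondrial, 28S not used here) and 22 mitochondrial tRNAs. A read that matched both of these classes was counted as rRNA. A mature Mir122 sequence was not used here, so its first base is the most used start. The rule for named genes gave Mir122, the marker lists (described by their sums, with some members named), the 5 hairpins most like Mir122 and the 5 most read per method. Mir21a lies outside it and was named after its values were seen. Mir885, Mir486a, Mir486b, Mir142hg and Spink3 matched no entry of the reference, and Mir486 was added.

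Group means over libraries were compared with two-sided exact permutation tests and Benjamini-Hochberg adjustment, with a threshold of 0.05 over 16 tests of make-up and 8 of normalization. The smallest p these designs allow is 0.00794, or 0.0286 with 4 against 4 libraries. Within each method, hairpins that reached 10 reads in 4 or more libraries were tested with edgeR 4.0.16 in R 4.3.3, and with DESeq2 1.42.0 as an alternative. On counts simulated from these libraries with 8-fold changes, edgeR recovered 99.3% of 138 changed among 690 hairpins (traditional) and 100% of 58 among 291 (PANDORA-seq), and 7.43% and 1.70% of its calls were false. All simulated hairpins of a method had 1 common dispersion (0.289 traditional, 0.2045 PANDORA-seq). Smaller changes and hairpins that vary more were not simulated, so the recovery does not tell how many changes near 2-fold were missed. Replicates were checked for repeated deposits, and all 36 pairs within groups differed by more than sampling noise (chi-square per degree of freedom of 24.2 or more). Whether same-numbered libraries deviate together was judged with a minimum r of 0.1 over 176 hairpins. Between methods all pairs met it (r of 0.158 to 0.653 in control, 0.248 to 0.618 in DCHP). Between exposures 2 of 4 pairs met it in PANDORA-seq and 2 of 5 in traditional RNA-seq, with r up to 0.563 and 0.257. Such values do not establish what a number stands for, so same-numbered libraries were paired only in alternative tests. Depth was 21588335 to 56506344 reads a library, so the Mir122 share is limited by counts only in PANDORA-seq (177 to 3694 reads). The labels and the methods name no batch. Other totals, filters and left-out libraries are in the closing section.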

Additional observations from a re-analysis of the deposited data

Results flagged for a closer look

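Of 32 sets of Mir122 values examined group by group for a sample far from the others, 5 had one, where chance alone would mark about 1 in 20. All 5 are levels of Mir122, the measure by which it was chosen, so they are a description and no test. The share of all hairpin reads in PANDORA-seq control 2 (1.21%) lay above the other 3 libraries of its group by 0.954 of the group's range. PANDORA-seq DCHP 2 (1.04%) lay above the other 4 by 0.745 of the range. In RPM the same libraries stood apart, PANDORA-seq control 2 with 129.4 RPM and PANDORA-seq DCHP 2 with 110.7 RPM, and so did traditional control 2 with 70134 RPM. All 5 values come from libraries numbered 2. The part of liver and blood RNA in them was not tested. The DCHP effect was compared between PANDORA-seq and traditional RNA-seq for 6 measures, and none passed (lowest exact permutation p = 0.146, adjusted p = 0.849, for mitochondrial tRNA fragments per miRNA read).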

How the results depend on the processing

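Of 212 alternatives for the 16 comparisons of make-up, at most 184 could have changed the side of the threshold and none did (lowest adjusted p 0.0635). The other 28 could not, being paired tests (15) or of the 3p arm at 0 in both groups (13). They used exact matches, reads of 18 nt or more, sequences with 2 reads or more, a library left out, or same-numbered libraries paired. The 31 alternatives for called hairpins each gave 0 calls, the replicate block included. On the log2 scale, the Mir122 share of PANDORA-seq over traditional was -5.23 in control and -4.42 in DCHP libraries (-7.14 to -4.29 and -5.40 to -3.71 with single libraries left out). It was -2.52 and -1.74 among 20 to 24 nt reads, -0.76 and -0.12 among miRNA-like hairpins, and -8.66 and -6.87 in RPM. The DCHP over control share in PANDORA-seq, -0.10, ran from -1.08 to 1.81 with single libraries left out. Mitochondrial tRNA fragments in control, PANDORA-seq over traditional, were 0.83 per miRNA read and did not pass. They passed at 3.66 and 3.54 per 20 to 24 nt hairpin read with and without Mir122, and were 5.58 and 5.57 per miRNA-like read, a base chosen on reads that are mostly traditional, so no call is drawn from it. Per read of the library they were of the opposite sign, -1.52 in control, which passed (adjusted p 0.0423), and -0.087 in DCHP, which did not (0.825), by exact permutation tests. With single libraries left out, calls were lost for rRNA in control (4.51 to 4.84) and mitochondrial tRNA in DCHP (2.22 to 2.59), in each case without any 1 of the 5 traditional libraries (adjusted p of 0.0762 and 0.0635). The first is the lowest that 4 against 4 libraries gave there, as their smallest p is 0.0286. The replicate block gave 4.89 and 4.94 for rRNA in control and DCHP and 2.31 for mitochondrial tRNA in DCHP, none of which can pass with 4 or 5 pairs, and it changed no other call. The cause of the other changes was not tested. Depth limits the 3p arm and the last base in PANDORA-seq.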
